A study of Mus musculus with 4 samples.

Results

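The 10 genes described here belong to the endothelium of the blood-brain barrier and were followed through the brains of normotensive (NT) and hypertensive (HT) mice with and without stroke. They were chosen by gene name, as Cldn5, Ocln, Tjp1, Pecam1, Cdh5, Slc2a1, Mfsd2a, Abcb1a, Plvap and Vwf, and are 10 of the 33981 genes in the deposited tables. All 10 passed the filter on low counts in every comparison. RNA was taken from a coronal section of perfused brain that included the prefrontal cortex and was sequenced in 24 libraries, 6 in each of 4 groups. All mice were male C57BL/6J mice aged 3 to 5 months that carried an infusion for 28 days and were culled at day 28. NT + Sham mice received saline and a sham operation, and NT + Stroke mice received saline and a photothrombotic stroke, in which light through the skull clots the vessels of a small piece of cortex. HT + Sham and HT + Stroke mice received angiotensin II, a peptide that raises blood pressure, at 0.28 mg/kg/day in place of saline. Surgery was on day 7. The libraries are numbered 1 to 6 in each group and no source ties a number to a mouse, so the p-values measure the spread between these libraries, which may be in part technical.

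The blood-brain barrier is formed by the endothelial cells that line brain capillaries. Tight junctions seal the gaps between neighbouring cells, carriers and efflux pumps decide which molecules cross, and vesicle traffic through the cells is kept low. Pericytes and astrocyte endfeet around the capillary keep the endothelium in this state, and after ischaemia the barrier is known to leak. Endothelial cells are a small part of a brain section, and in bulk RNA fewer cells of a type and less RNA per cell cannot be told apart.

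The total count per library ran from 15922919 to 24865998 with a median of 18497215, and each of the 10 genes had between 61 and 2991 counts in a library. Levels are given as CPM, counts scaled to library size with TMM factors, for a gene across libraries, and as FPKM, which also divides by gene length, between genes. Endothelial RNA was present throughout. The summed level of 8 other endothelial genes (Tie1, Tek, Robo4, Erg, Esam, Emcn, Sox18 and Egfl7) ran from 101 to 141 CPM over the 24 libraries. Markers of several other cells moved with stroke in normotensive mice, and markers of brain regions differed between the groups. Summed fibroblast and meningeal markers (10 genes) were 127, 138 and 160 CPM in NT + Sham (lowest, median and highest of 6 libraries) and 324, 598 and 1001 CPM in NT + Stroke, and summed microglial and macrophage markers (13 genes) were 349, 381 and 405 CPM and 616, 870 and 1197 CPM. Summed neuronal markers (9 genes) were 10583, 10893 and 11313 CPM in NT + Sham and 8184, 8517 and 9393 CPM in NT + Stroke, and summed astrocyte markers (9 genes) were 2967, 3055 and 3294 CPM and 3514, 4034 and 4238 CPM, without overlap in either. Summed olfactory bulb markers (8 genes, 4 of 6 tested called higher) were 62.8, 115 and 148 CPM and 102, 246 and 410 CPM, and these groups overlapped. In hypertensive mice the olfactory bulb sums went the other way, with 0 of 6 tested called. They were 109, 247 and 495 CPM in HT + Sham and 35.4, 103 and 309 CPM in HT + Stroke. Summed striatal markers (7 genes, 0 called) were 188, 564 and 854 CPM in HT + Sham and 641, 1536 and 2080 CPM in HT + Stroke. In NT + Sham they were 290, 712 and 1203 CPM, and in NT + Stroke 311, 1209 and 1687 CPM (0 called). In HT + Stroke the fibroblast and microglial sums varied more, from 167 to 1045 CPM and from 436 to 1325 CPM, with libraries 1 and 6 lowest in both. In HT + Sham 1 library, number 6, stood above the rest of its group at 351 and 596 CPM. No sequencing batch is labelled.

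Per gene length, Cldn5 was the most abundant of the 10 and Ocln the least. Cldn5 encodes claudin-5, the main sealing protein of the tight junction at the barrier (ENSMUSG00000041378, chr16:18776847-18778262 on the plus strand of GRCm38), and had a median of 48.4 FPKM over all libraries with a range of 33.6 to 60.1 FPKM. Slc2a1 encodes GLUT1, the glucose carrier of the barrier (ENSMUSG00000028645, chr4:119108711-119137983, plus strand), and followed at 31.7 FPKM (24.4 to 42.9). Cldn5 stood above Slc2a1 in 23 of 24 libraries, although their ranges overlapped. A wide step separated these genes from the other 8. Mfsd2a, the carrier of lysophospholipids with docosahexaenoic acid and a brake on transcytosis (ENSMUSG00000028655, chr4:122946850-122961188, minus strand), had a median of 8.89 FPKM (5.99 to 13.5), below Slc2a1 in all 24 libraries. Plvap, the diaphragm protein of fenestrated and leaky vessels (ENSMUSG00000034845, chr8:71497765-71511752, minus strand), had a median of 8.20 FPKM (6.34 to 11.4). Mfsd2a was above Plvap in only 16 of 24 libraries, and their levels did not differ beyond their spread.

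The remaining genes lay lower. Tjp1, the scaffold protein ZO-1 of tight junctions in many epithelia and glia as well as endothelium (ENSMUSG00000030516, chr7:65296165-65527781, minus strand), had a median of 6.52 FPKM. Abcb1a, one of the pair of mouse genes for the efflux pump P-glycoprotein (ENSMUSG00000040584, chr5:8660077-8748575, plus strand), had a median of 4.0 FPKM. Tjp1 exceeded Abcb1a in 24 of 24 libraries. Cdh5, the VE-cadherin of endothelial adherens junctions (ENSMUSG00000031871, chr8:104101625-104144511, plus strand), had a median of 3.26 FPKM. Pecam1, the adhesion molecule CD31 of endothelium, platelets and leukocytes (ENSMUSG00000020717, chr11:106654217-106750628, minus strand), had a median of 2.93 FPKM. Vwf, the von Willebrand factor that tethers platelets (ENSMUSG00000001930, chr6:125546774-125686679, plus strand), had a median of 1.56 FPKM, and Ocln, the tight junction protein occludin (ENSMUSG00000021638, chr13:100496507-100552718, minus strand), had a median of 1.30 FPKM. In this lower part of the order the ranges of neighbours overlapped, and the higher of Abcb1a and Cdh5, of Cdh5 and Pecam1, and of Vwf and Ocln was above the other in 21, 19 and 20 of 24 libraries. The exons of 8 of the 10 genes share no base with exons of another gene in GENCODE M21. For Abcb1a 10.1% of the exonic bases, and for Slc2a1 2.99%, lie under an exon on the opposite strand (Gm42686 and Gm12868), and without a stated strand setting such reads could not be told apart. Reads of Abcb1a and its close paralogue Abcb1b may also have been split by the counting, so values of Abcb1a are uncertain to that degree.

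**Figure D1:**
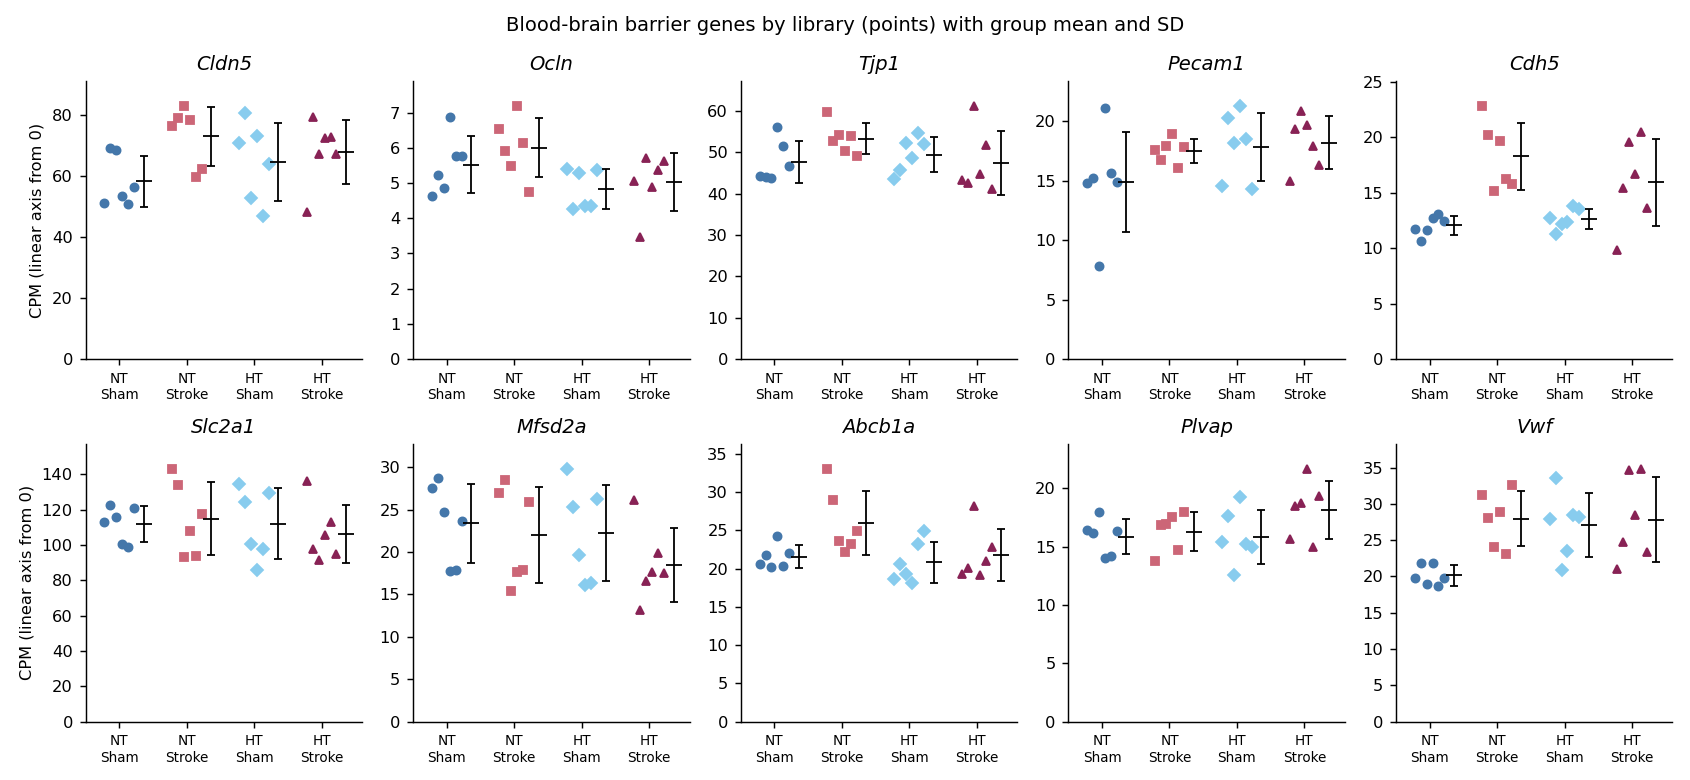
CPM of each of the 10 genes (vertical axes, linear from 0) in the 4 groups (horizontal axes), with 1 point per library and the group mean with its SD as the black bar. Cdh5 and Vwf in NT + Stroke lay entirely above NT + Sham (15.2 to 22.8 against 10.7 to 13.1 CPM, and 23.1 to 32.6 against 18.7 to 21.9 CPM), while Slc2a1 and Mfsd2a covered overlapping ranges in all 4 groups.

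Stroke in normotensive mice went with higher levels of 4 of the 10 genes, Cdh5, Vwf, Cldn5 and Abcb1a, and with lower levels of 0. Between NT + Stroke and NT + Sham, 25.9% of the 16835 genes tested were called in either direction, 14.4% higher and 11.5% lower (edgeR quasi-likelihood test, Benjamini-Hochberg adjusted *P* under 0.05). The members' count was 2 of 10 with all 4 groups in one fit (Cdh5 and Vwf), where 3774 of 17608 genes were called. With 1 library left out it was 3 to 5 of 10, where 3530 to 4210 of all genes were called. The 10 genes were chosen with earlier results of these data known. The median log2 fold change was 0.20 over the 10 genes and -0.01 over all genes tested. The comparison asks how barrier transcripts in the brain section differed at day 28 after injury to the cortex on day 7.

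Among the junction genes, Cdh5 changed most. Its level was 10.7, 12.1 and 13.1 CPM in NT + Sham (lowest, median and highest) and 15.2, 17.9 and 22.8 CPM in NT + Stroke, so that the groups did not overlap. The mean was 12 ± 0.890 CPM in NT + Sham and 18.3 ± 3.03 CPM in NT + Stroke (SD, n = 6 each), which is 1.52-fold higher (log2 fold change 0.60 ± 0.10 SE, adjusted *P* = 0.000225). Cldn5 was 51.0, 54.9 and 69.3 CPM in NT + Sham and 59.8, 77.3 and 83.0 CPM in NT + Stroke. All 6 stroke libraries lay above the sham median, but the groups overlapped because sham libraries 2 and 3 (69.3 and 68.6 CPM) stood above stroke libraries 5 and 6 (59.8 and 62.3 CPM). Its rise was 1.26-fold (log2 fold change 0.33 ± 0.10 SE, adjusted *P* = 0.0194). This call was lost when all genes with at least 1 count were tested (adjusted *P* = 0.0744) and when all 4 groups shared one fit (0.0656), within a range of 0.00119 to 0.0744 over the alternatives.

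The other junction genes did not pass the test. Tjp1 was 43.9, 45.5 and 56.1 CPM in NT + Sham and 49.0, 53.3 and 59.8 CPM in NT + Stroke, with 6 of 6 stroke libraries above the sham median (log2 fold change 0.16 ± 0.07 SE, adjusted *P* = 0.0996). It passed with scaling by library size only (adjusted *P* = 0.04) and without NT + Sham library 4, its highest sham library (adjusted *P* = 0.0134). Pecam1 was 7.86, 15.1 and 21.1 CPM in NT + Sham and 16.1, 17.7 and 19.0 CPM in NT + Stroke. The sham group alone held both the lowest and the highest of these 12 values (log2 fold change 0.24 ± 0.15 SE, adjusted *P* = 0.29). Ocln, at 4.64 to 6.87 CPM in NT + Sham and 4.76 to 7.18 CPM in NT + Stroke, had a log2 fold change of 0.13 with a 95% interval of -0.14 to 0.39.

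Of the transport genes, only the efflux pump was called. Abcb1a was 20.3, 21.2 and 24.3 CPM in NT + Sham and 22.1, 24.2 and 33.0 CPM in NT + Stroke. All 6 stroke libraries were above the sham median, and libraries 1 and 2 at 33.0 and 28.9 CPM stood above the highest sham library by the widest margin (1.21-fold, log2 fold change 0.27 ± 0.09 SE, adjusted *P* = 0.0372). This call was near the threshold. Without NT + Sham 1, 3, 5 or 6 or NT + Stroke 1 or 2, each in turn, the adjusted *P* was 0.0552 to 0.0764, with log2 fold changes of 0.25 to 0.28, and 0.20 without NT + Stroke 1. With all 4 groups in one fit it was 0.27 (adjusted *P* = 0.0669). Its paralogue Abcb1b was also called higher, with a log2 fold change of 0.55 ± 0.20 SE (adjusted *P* = 0.0468). Slc2a1 covered 98.7 to 122 CPM in NT + Sham and 93.2 to 143 CPM in NT + Stroke, with a difference of 0.04 on the log2 scale and a 95% interval of -0.17 to 0.25. Mfsd2a covered 17.7 to 28.7 CPM and 15.4 to 28.4 CPM, with a difference of -0.08 and an interval of -0.45 to 0.29. For both carriers the difference was within the spread between libraries.

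Vwf and Plvap, which mark haemostatic and fenestrated endothelium, gave different results. Vwf was 18.7, 19.8 and 21.9 CPM in NT + Sham and 23.1, 28.4 and 32.6 CPM in NT + Stroke, and these groups did not overlap. The means were 20.2 ± 1.41 CPM and 28.0 ± 3.81 CPM (SD, n = 6 each), a 1.39-fold rise (log2 fold change 0.48 ± 0.09 SE, adjusted *P* = 0.000444). Cdh5 and Vwf were the only members whose groups did not overlap, where 7.78% of all genes tested did not overlap with the stroke group higher and 5.74% with it lower. Plvap was 14.0, 16.2 and 18.0 CPM in NT + Sham and 13.8, 16.9 and 17.9 CPM in NT + Stroke, nearly the same range (log2 fold change 0.05, 95% interval -0.14 to 0.23). Vwf is also a platelet and megakaryocyte gene, and the summed level of 7 platelet genes was 7.20, 7.81 and 8.60 CPM in NT + Sham and 8.60, 10.8 and 12.8 CPM in NT + Stroke. Of these, Ppbp and Gp1bb had medians under 0.1 CPM, and Pf4, which macrophages also express, was the 1 of 3 tested that was called higher. Summed choroid plexus genes, which lie beside fenestrated vessels, were 7.71, 9.55 and 16.6 CPM and 15.3, 17.9 and 32.5 CPM. Of 7 oligodendrocyte markers, 4 were called higher and 0 lower in NT + Stroke vs NT + Sham. The part of the platelet, choroid plexus, fibroblast, microglial, astrocyte, oligodendrocyte, neuronal and olfactory bulb markers in these results was not tested.

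**Figure D2:**
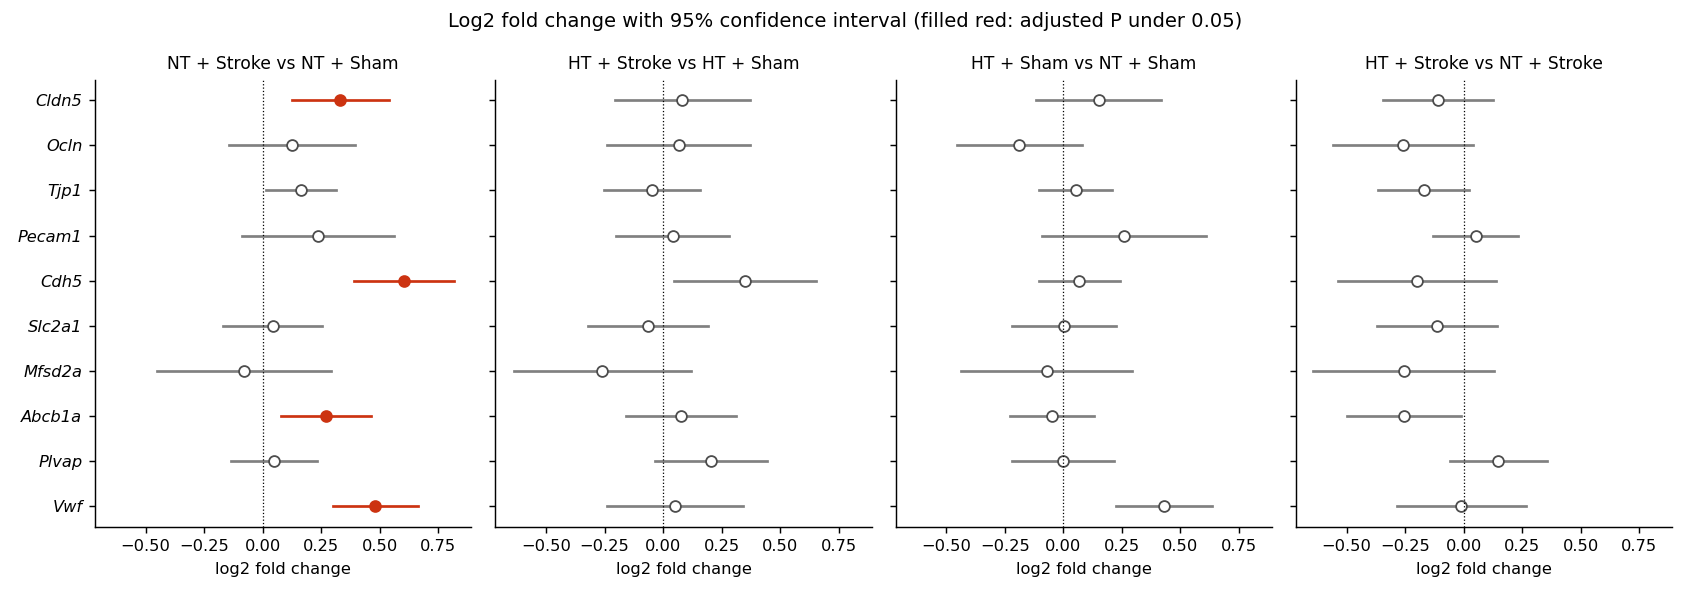
Log2 fold change of each gene (points) with its 95% confidence interval (lines) in 4 comparisons of 6 against 6 libraries, with calls at an adjusted *P* under 0.05 filled in red. The 4 red points, for Cldn5, Cdh5, Abcb1a and Vwf at 0.33, 0.60, 0.27 and 0.48, are all in NT + Stroke vs NT + Sham, and the other 3 panels hold none.

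In hypertensive mice, 0 of the 10 genes were called between HT + Stroke and HT + Sham, a comparison in which 0.645% of 16741 genes were called, 0.544% higher and 0.102% lower. All 10 overlapped between these groups, where 0.579% of genes lay wholly higher and 0.567% wholly lower. Without adjustment, Cdh5 alone of the 10 had *P* under 0.05 by edgeR, and DESeq2 called 0 of the 10. Cdh5 was 11.3, 12.5 and 13.8 CPM in HT + Sham and 9.85, 16.0 and 20.5 CPM in HT + Stroke, with 5 of 6 stroke libraries above the sham median (log2 fold change 0.35 ± 0.14 SE, adjusted *P* = 0.227). The exception was HT + Stroke library 1, which also had low sums of fibroblast markers (167 CPM) and microglial markers (471 CPM) for a stroke library. Without it Cdh5 was called, at a log2 fold change of 0.45 (adjusted *P* = 0.0434, within a range of 0.0434 to 0.383 over the libraries left out), and 533 of all genes were called in place of 108. The background itself moved with single libraries, to 9 genes without HT + Sham library 3 or HT + Stroke library 2, 14 without HT + Sham library 1 and 18 without HT + Sham library 4. Of 7 oligodendrocyte markers, 5 were called higher and 0 lower in this comparison. They summed to 3856, 4059 and 5023 CPM in HT + Sham and to 5295, 5755 and 5917 CPM in HT + Stroke, without overlap. The part of the oligodendrocyte, fibroblast, microglial, striatal and olfactory bulb markers in this result was not tested.

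The other members varied around 0 in this comparison. Plvap was 12.5, 15.3 and 19.3 CPM in HT + Sham and 15, 18.6 and 21.6 CPM in HT + Stroke (log2 fold change 0.21 ± 0.11 SE, adjusted *P* = 0.371). Mfsd2a was 16.1, 22.5 and 29.8 CPM and 13.1, 17.6 and 26.1 CPM, with 5 of 6 stroke libraries below the sham median (log2 fold change -0.26 ± 0.18 SE, adjusted *P* = 0.494). Vwf, which had separated the normotensive groups, was 20.9, 28.1 and 33.6 CPM in HT + Sham and 21.1, 26.6 and 34.8 CPM in HT + Stroke, with a log2 fold change of 0.05 and a 95% interval of -0.24 to 0.34. Cldn5 was 47.0, 67.5 and 80.6 CPM and 48.2, 70.0 and 79.3 CPM, almost the same range in both groups. The 5 genes Ocln, Tjp1, Pecam1, Slc2a1 and Abcb1a had log2 fold changes from -0.06 to 0.08.

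Whether stroke acted differently under angiotensin II was tested as an interaction over all 24 libraries. None of the 10 genes was called, and 0% of the 17608 genes tested were called by edgeR, while 1836 genes (10.4%) had an unadjusted *P* under 0.05. DESeq2 called 22 genes, none of them a member. The difference between both stroke effects, hypertensive minus normotensive, was negative for 9 of the 10 genes, with Plvap as the exception at 0.15. Over all genes tested 50.6% were positive, and the members share their libraries, so their signs are not independent. The difference was largest for Vwf, at -0.43 ± 0.17 SE on the log2 scale (95% interval -0.78 to -0.09, adjusted *P* = 0.387), the only member with an unadjusted *P* under 0.05. For Cdh5 it was -0.26 (interval -0.63 to 0.11) and for Cldn5 -0.26 (interval -0.62 to 0.11). The stroke effects of the members were therefore not shown to differ between normotensive and hypertensive mice.

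Angiotensin II without stroke gave no call either. In HT + Sham vs NT + Sham 0 of 10 members and 0% of 16581 genes were called by edgeR, with 1332 genes (8.03%) at an unadjusted *P* under 0.05, and DESeq2 and limma also called 0. The groups overlapped for all 10 members (0.169% of genes did not, with the HT group higher, and 0.175% with it lower). Vwf was the only member with an unadjusted *P* under 0.05. Its level was 18.7, 19.8 and 21.9 CPM in NT + Sham and 20.9, 28.1 and 33.6 CPM in HT + Sham, so that all 6 HT + Sham libraries were above the NT + Sham median and 1 of them lay within the NT + Sham range (log2 fold change 0.43 ± 0.10 SE, adjusted *P* = 0.406). Ocln was 4.64, 5.49 and 6.87 CPM in NT + Sham and 4.26, 4.82 and 5.40 CPM in HT + Sham, with 6 of 6 libraries below the NT + Sham median (log2 fold change -0.19 ± 0.13 SE, adjusted *P* = 0.771). Slc2a1 and Plvap differed by 0.00 on the log2 scale, with intervals of -0.22 to 0.22 for both, and for both the sign turned under some alternatives (for Slc2a1 by DESeq2 and with the replicate block).

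Between the stroke groups, 0 of 10 members and 0% of 17008 genes were called in HT + Stroke vs NT + Stroke by edgeR, with 1230 genes (7.23%) at an unadjusted *P* under 0.05, and DESeq2 and limma also called 0. The log2 fold change was negative for 8 of the 10 genes, which share their libraries, and positive for 47.6% of all genes tested. Abcb1a was 22.1, 24.2 and 33.0 CPM in NT + Stroke and 19.2, 20.6 and 28.2 CPM in HT + Stroke, with 5 of 6 HT + Stroke libraries below the NT + Stroke median (log2 fold change -0.26 ± 0.11 SE, adjusted *P* = 0.654). Ocln was 4.76, 6.02 and 7.18 CPM and 3.46, 5.22 and 5.72 CPM, with 6 of 6 below (log2 fold change -0.26 ± 0.14 SE, adjusted *P* = 0.654). All 10 members overlapped here, where 0.047% of genes lay wholly higher and 0.112% wholly lower in HT + Stroke. Vwf differed by -0.01, with an interval of -0.29 to 0.27.

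HT + Stroke vs NT + Sham sets both treatments against neither, and shares its sham libraries with the normotensive stroke comparison. Here Vwf was the 1 of 10 members called, against a background of 14.7% of 16749 genes called in either direction 8.38% higher and 6.37% lower. All 10 overlapped, where 2.35% of genes lay wholly higher and 3.58% wholly lower. Its level was 21.1, 26.6 and 34.8 CPM in HT + Stroke and 18.7, 19.8 and 21.9 CPM in NT + Sham, with 6 of 6 libraries above the sham median and 1 of them within the sham range (1.40-fold, log2 fold change 0.48 ± 0.12 SE, adjusted *P* = 0.0172). With library number as a replicate block Vwf was not called (adjusted *P* = 0.0653), within a range of adjusted *P* of 0.00299 to 0.0653 over the alternatives. Cdh5 had a log2 fold change of 0.42 ± 0.14 SE (adjusted *P* = 0.0614) and passed by DESeq2 (0.0423) and with all 4 groups in one fit (0.0271). Without HT + Stroke library 1, Cdh5 (0.52) and Cldn5 (0.31) were also called higher and Mfsd2a (-0.45) lower, where 2966 of 16936 genes were called in place of 2470. Without HT + Stroke library 6, Cdh5 (0.46) was called as well as Vwf, where 2769 of 16946 genes were called. These libraries had the lowest sums of fibroblast and microglial markers in their group, and the part of those markers was not tested.

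A bulk level mixes the number of endothelial cells with the RNA in each, so every member was also measured against the mean of the 8 other endothelial genes in the same library. Such a ratio shows only unequal change of the member and those genes, and does not give a level per cell. By this measure, 0 of 40 tests (10 genes in 4 comparisons) passed an adjusted *P* of 0.05 in exact two-sided permutation tests. The smallest *P* that 6 against 6 libraries allow is 0.0021645, so over 40 tests a single gene with complete separation reaches an adjusted *P* of 0.0866 and could not be called alone. That was also the smallest adjusted *P* reached, so the count of 0 says little. Relative to those genes, Cdh5 was 0.12 ± 0.09 on the log2 scale in NT + Sham and 0.60 ± 0.21 in NT + Stroke (SD, n = 6 each), a difference of 0.48 with *P* = 0.0021645 (adjusted *P* = 0.0866, exact permutation). The lowest NT + Stroke library lay above the highest NT + Sham library. Vwf was 0.84 ± 0.15 and 1.21 ± 0.19, a difference of 0.36, and these groups overlapped (exact permutation *P* = 0.00433, adjusted *P* = 0.0866). Both adjusted values fell below 0.05 without NT + Stroke library 3.

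The remaining relative differences had larger P values. Relative Vwf was 1.24 ± 0.23 in HT + Sham, a difference of 0.39 from NT + Sham (exact permutation *P* = 0.00866, adjusted *P* = 0.115; 0.46 and 0.0433 without HT + Sham library 3), and 1.2 ± 0.24 in HT + Stroke, so that NT + Sham was the lowest of the 4 groups. Cldn5 was 0.23 higher in NT + Stroke than in NT + Sham (exact permutation *P* = 0.0844, adjusted *P* = 0.552), less than its unreferenced log2 fold change of 0.33. Mfsd2a was lowest in HT + Stroke at 0.62 ± 0.43, against 1.03 ± 0.37 in NT + Sham, 0.84 ± 0.41 in NT + Stroke and 0.93 ± 0.38 in HT + Sham, and these spreads overlapped. Of the 8 reference genes themselves 1, Tie1 (log2 fold change 0.34 ± 0.11 SE, adjusted *P* = 0.0232), was called in NT + Stroke vs NT + Sham, and their median log2 fold change was 0.07.

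**Figure D3:**
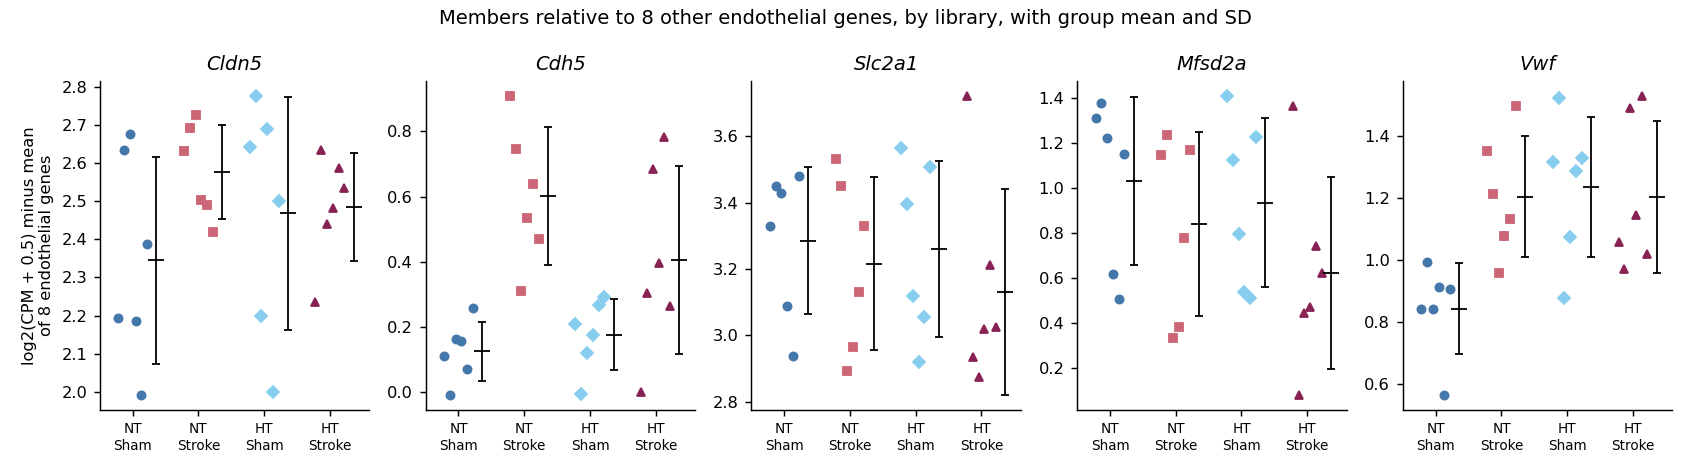
Values of 5 of the 10 genes as log2(CPM + 0.5) minus the mean of the same measure over 8 other endothelial genes (vertical axes, log2 scale), with 1 point per library in 4 groups and the group mean with its SD as the black bar. Relative Cdh5 in NT + Stroke (mean 0.60) lay above all NT + Sham libraries (mean 0.12), and relative Vwf was lowest in NT + Sham (mean 0.84, against 1.2 to 1.24 in the other groups).

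The 2 carriers Slc2a1 and Mfsd2a varied together from library to library, in all 4 groups. After subtracting group means from log2(CPM + 0.5), Pearson's r over the 24 libraries was 0.904 (permutation *P* = 2e-05) and Spearman's rho was 0.893 (permutation *P* = 2e-05), with an adjusted *P* of 0.0009 for both over 45 pairs of members and 100000 permutations within groups. Without the 2 libraries farthest from the median of Slc2a1, r was 0.882. Within single groups of 6 libraries r was 0.892 in NT + Sham, 0.912 in NT + Stroke, 0.971 in HT + Sham and 0.846 in HT + Stroke. Mfsd2a left a gap in its levels, with 13 libraries at 13.1 to 19.9 CPM and 11 libraries at 23.65 to 29.8 CPM. The 13 libraries had Slc2a1 at 85.8 to 112.8 CPM and the 11 libraries had it at 113.1 to 143.0 CPM, without overlap. Each group had libraries on both sides, with 4 of 6 libraries on the upper side in NT + Sham, 3 each in NT + Stroke and HT + Sham, and 1 in HT + Stroke. The gap was noticed after the values were seen.

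The promoter windows of this pair are shown because the 2 genes moved together. They are RefSeq sequences on GRCm38.p6, from 250 bases before to 50 bases after the transcript start, and such windows were found for 6 of the 10 genes. Capitals mark matches on either strand to GGGCGG (the GC box), ACGTG (the core of hypoxia-inducible factor sites), CTTTGA (the core of TCF/LEF sites of the Wnt pathway, which drives barrier formation) and CCGGAAG (an ETS site), and no 2 matches overlap.
Slc2a1, chr4:119108495-119108794, plus strand: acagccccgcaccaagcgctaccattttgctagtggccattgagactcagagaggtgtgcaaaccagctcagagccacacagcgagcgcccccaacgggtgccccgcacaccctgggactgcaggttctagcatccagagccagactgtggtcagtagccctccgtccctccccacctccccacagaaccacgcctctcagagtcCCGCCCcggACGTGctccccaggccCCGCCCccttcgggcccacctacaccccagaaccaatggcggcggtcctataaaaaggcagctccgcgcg
Mfsd2a, chr4:122961139-122961438, minus strand: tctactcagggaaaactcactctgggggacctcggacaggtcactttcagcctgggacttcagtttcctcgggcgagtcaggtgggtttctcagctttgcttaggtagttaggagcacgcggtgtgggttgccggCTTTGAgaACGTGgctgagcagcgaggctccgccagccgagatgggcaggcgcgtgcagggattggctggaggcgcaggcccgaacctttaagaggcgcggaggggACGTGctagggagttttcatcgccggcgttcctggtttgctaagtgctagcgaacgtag

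The Slc2a1 window holds 1 ACGTG and 2 matches to the GC box, and the Mfsd2a window holds 2 matches to ACGTG and 1 to CTTTGA. The only motif of the 4 found in both is ACGTG. It is not particular to this pair, since the Tjp1 window holds 1 match as well, while that of Abcb1a, both of Ocln and that of Cldn5 hold 0. The Abcb1a window (chr5:8566841-8567140) lies outside the gene position given above. The Tjp1 window (chr7:65371195-65371494) lies inside the gene, away from its start on the minus strand. Of all 32851 windows of this length, 19.6% hold ACGTG, 35.7% hold the GC box, 16.0% hold CTTTGA and 8.86% hold CCGGAAG. These matches are letters in a window and were not tested against the expression.

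The other pairs of members were less alike. Of 45 pairs, 2 passed an adjusted *P* of 0.05 for Pearson's r, and Slc2a1 with Mfsd2a was the only pair that passed for Spearman's rho as well. The other pair was Tjp1 with Abcb1a (r = 0.636, adjusted *P* = 0.0495, rho = 0.464, adjusted *P* = 0.184, permutation within groups), whose r fell to 0.446 without the 2 libraries farthest from the median of Tjp1. Cdh5 had an r of 0.611 with Tjp1 and 0.600 with Vwf (both adjusted *P* = 0.143, permutation within groups). Within groups the r of Cdh5 with Vwf was -0.369 in NT + Sham, 0.481 in NT + Stroke, -0.069 in HT + Sham and 0.945 in HT + Stroke. The correlation to the mean of the 8 endothelial genes was highest for Cdh5 (0.575), Pecam1 (0.488), Vwf (0.348) and Cldn5 (0.347). It was 0.267 for Tjp1, 0.143 for Plvap, 0.091 for Ocln and 0.059 for Abcb1a, and negative for Slc2a1 (-0.274) and Mfsd2a (-0.459). These last values are a description over 24 libraries that share their scaling.

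**Figure D4:**
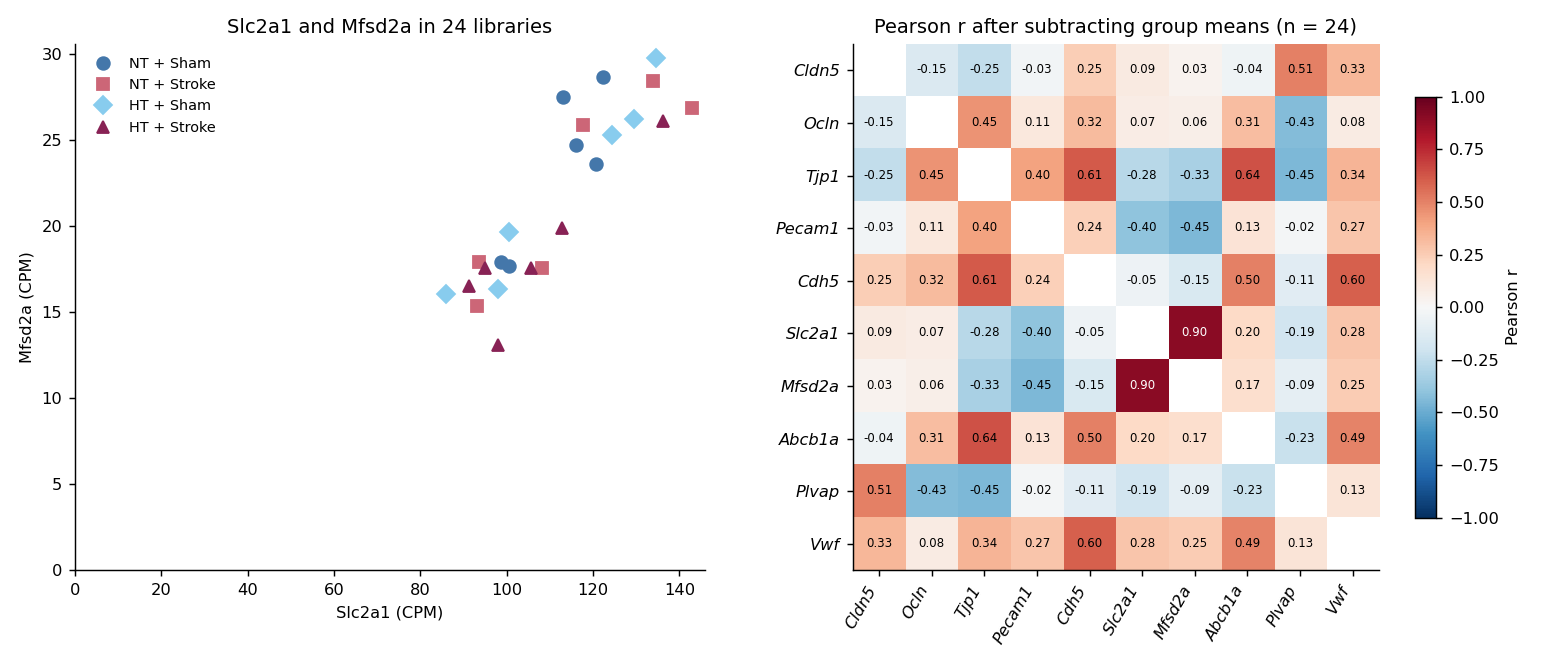
Left, Mfsd2a against Slc2a1 in CPM (both axes linear from 0) for 24 libraries marked by group, and right, Pearson's r between all 45 pairs of the 10 genes after group means were subtracted. Slc2a1 with Mfsd2a stands out at 0.904, and the libraries of every group fall both in the lower left (Mfsd2a up to 19.9 CPM) and in the upper right (from 23.65 CPM).

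The genes whose levels most resembled each member were searched among 15495 genes that averaged 1 CPM or more, by Pearson's r after subtracting group means over the 24 libraries. Plin4, a lipid droplet protein, was the most similar gene to both Slc2a1 (r = 0.934) and Mfsd2a (0.939). Klf15, a transcription factor, was among the first 3 for both as well (0.928 and 0.897), together with Hif3a for Slc2a1 (0.917) and Gm19439 for Mfsd2a (0.938). For Tjp1 the most similar were Map4k4 (0.907), Plpp3 (0.897) and Slc1a3, the astrocytic glutamate carrier (0.873). For Cdh5 they were Lix1l (0.873), Laptm4a (0.856) and St5 (0.841), and for Cldn5 Fdxr (0.829), Psmg2 (0.821) and Tpt1-ps3 (0.808). The highest r was 0.848 for Ocln (Rai2), 0.833 for Pecam1 (Rbm43), 0.820 for Abcb1a (Zcchc24), 0.808 for Plvap (Gm30025) and 0.786 for Vwf (Phyhd1). None of the 8 endothelial reference genes was among the 3 most similar genes of any member.

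Around the 10 genes, 109 other genes (some in more than 1 list) of barrier function were counted in 7 lists. In NT + Stroke vs NT + Sham, 40 of the 100 tested were called higher (40%) and 6 lower (6%), with a median log2 fold change of 0.23, against 14.4% and 11.5% of all genes. The lists were chosen with earlier results of these data known, so their shares only describe the genes listed and do not test the lists. The junction list, to which 5 of the 10 members would belong, had 7 of 18 called higher and 0 lower. Among those called were F11r, the junctional adhesion molecule JAM-A (log2 fold change 0.68 ± 0.11 SE), Cgnl1, the scaffold paracingulin (0.65 ± 0.11), and Ctnna1, an alpha-catenin that ties cadherins to actin (0.28 ± 0.07). The list of vesicles and caveolae, the route that Mfsd2a restrains, had 6 of 9 higher and 1 lower, led by Cavin1 (0.83 ± 0.09), which shapes caveolae, Ehd2 (0.67 ± 0.12) and Ehd4 (0.55 ± 0.10), which bind membranes, and Cav1 (0.55 ± 0.11), the caveolar coat protein, with Eps15 lower (-0.22 ± 0.07). Markers of mural cells, fibroblasts and glia moved in the same comparison, and their part was not tested.

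The transporter list had 6 of 22 higher and 3 lower. Slco2b1, an organic anion carrier (0.73 ± 0.10), and Slc16a1, the monocarboxylate carrier MCT1 (0.58 ± 0.11), led the higher genes together with Ager (1.0 ± 0.26), a receptor for glycated proteins, and Slc22a8 (0.47 ± 0.13), an organic anion carrier. The lower genes were Slc39a10 (-0.46 ± 0.08), a zinc carrier, Tfrc (-0.40 ± 0.10), the transferrin receptor, and Slc7a1 (-0.22 ± 0.07), a carrier of cationic amino acids. The list of haemostasis, to which Vwf belongs by function, had 9 of 11 higher and 0 lower with a median of 0.91, led by Pros1 (1.01 ± 0.11), Thbd (1.11 ± 0.13), Anxa2 (1.36 ± 0.15) and Tfpi (0.91 ± 0.12), which are anticoagulant or fibrinolytic factors and, like Vwf, were called higher.

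Of the barrier programme, the Wnt and Sox genes that induce the barrier, 5 of 20 were higher and 1 lower. Wnt7a (0.56 ± 0.11), Lrp5 (0.56 ± 0.11), Adgra2 (0.59 ± 0.15) and Sox17 (0.37 ± 0.12) were among the higher and Wnt7b (-0.43 ± 0.08) was the lower. Among leukocyte adhesion genes 3 of 7 were higher, Cd44 (2.32 ± 0.18), Icam1 (1.72 ± 0.20) and Vcam1 (0.60 ± 0.07), while Sele and Selp had medians under 0.1 CPM. Among genes of angiogenic endothelium 4 of 15 were higher, Angpt2 (1.28 ± 0.23), Mcam (0.45 ± 0.10), Esm1 (1.36 ± 0.43) and Acvrl1 (0.33 ± 0.11), and Cd34 was lower (-0.43 ± 0.06). Each change of a member was smaller than the changes of Cd44, Icam1, Angpt2 and Esm1 as estimates, and that difference was not tested.

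The same lists were counted in the other comparisons. Of 101 genes tested in HT + Stroke vs HT + Sham 1 was called (0.99% higher, against 0.544% of all genes), Acvrl1, a BMP receptor of endothelium, at 0.53 ± 0.10. Of 99 in HT + Sham vs NT + Sham and of 104 in HT + Stroke vs NT + Stroke, 0 were called by edgeR. In HT + Stroke vs NT + Sham 19 of 100 were higher and 3 lower, against 8.38% and 6.37% of all genes, with 0.48 for Vwf beside 1.42 ± 0.38 for Procr, the protein C receptor. Mural markers, which lie against the endothelium, summed to 273, 298 and 314 CPM in NT + Sham and to 348, 360 and 403 CPM in NT + Stroke. Of that list 3 of 11 tested were called higher and 0 lower, with a median log2 fold change of 0.22. Pdgfrb and Vtn were among those called (0.66 ± 0.08 and 0.57 ± 0.07).

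**Figure D5:**
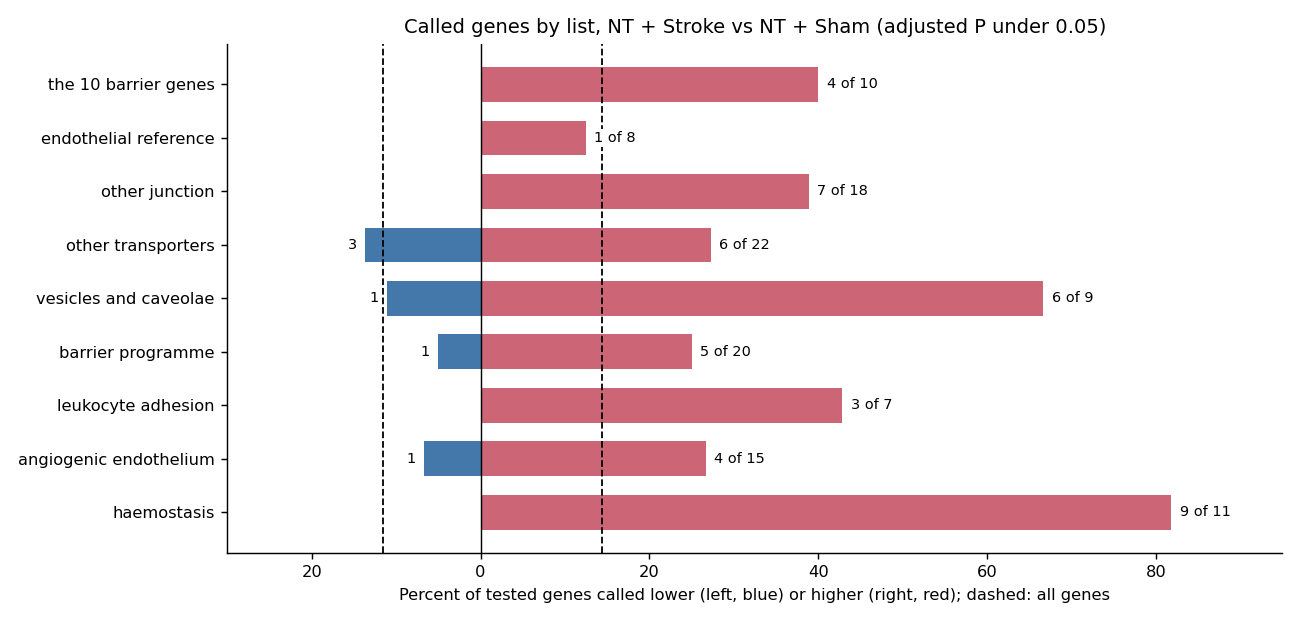
Percent of tested genes called higher (red, right) and lower (blue, left) in NT + Stroke vs NT + Sham. Bars stand for the 10 barrier genes and 8 lists of other genes, with the counts beside the bars. These lists are the endothelial reference genes and the lists of barrier function, in which the part of other cells was not tested. The 10 genes and the lists were chosen with earlier results of these data known, so the shares are a description. Dashed lines are the percentages over all genes (14.4 and 11.5). Haemostasis (9 of 11) and vesicles and caveolae (6 of 9) had the highest shares, the 10 barrier genes had 4 of 10, and the endothelial reference genes had 1 of 8.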

How the data were processed

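RNA-seq of brain sections was read from 4 deposited tables holding 24 libraries, 6 in each of 4 groups. The authors made the counts per gene with featureCounts 1.5.0-p3 and compared groups with DESeq2 1.20.0, as the submitters' processing notes list. The aligner and the strand setting were not given in the sources used here, and gene positions matched GENCODE M21 (GRCm38) for 97.55% of genes. The authors also deposited FPKM, their counts per gene length and library size. Their fold changes, p-values and 48 columns of normalized counts were not used. Counts were tested as deposited with edgeR 4.0.16 in R 4.3.3 (quasi-likelihood test, TMM scaling, filterByExpr with a minimum count of 10 and a total of 15, Benjamini-Hochberg adjustment over all genes tested, threshold 0.05), fitted on the 12 libraries of each pair of groups, and on all 24 for the interaction. The scripts were tested on simulated data, where edgeR called 16 of 50 genes changed 1.25-fold and 27 of 50 changed 1.5-fold among 16835 genes of NT + Stroke vs NT + Sham, with 6 false calls. Far fewer genes were changed there than were called in the data, so these counts do not give the share of real changes found. Each gene was also compared with 8 other endothelial genes on log2(CPM + 0.5) by exact permutation over 924 splits. All 10 genes are named in NT + Stroke vs NT + Sham and in HT + Stroke vs HT + Sham, and a part of them in the other comparisons. The 3 genes most similar to each member were found, and for some members only the first is given. For the lists the rule was to name up to 4 genes of smallest *P* called in each direction. A few list genes that this rule would name are not reported here. Members and lists were chosen with earlier results of these data known. Alternatives were no filter, library size only, RLE scaling, DESeq2 1.42.0, limma 3.58.1 on log2(FPKM + 1) and log2(FPKM + 0.1), all 4 groups in one fit, a replicate block, other reference genes and each library left out. Library totals ran from 15922919 to 24865998 counts, and no date or batch is labelled.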

Additional observations from a re-analysis of the deposited data

Results flagged for a closer look

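Among 40 combinations of a gene and a group, 1 library stood apart from the other 5 of its group by Dixon's test, which chance alone gives in about 1 of 20 groups. Ocln was 3.46 CPM in HT + Stroke library 2, against 4.89 to 5.72 CPM in the other 5 libraries, a gap of 0.630 of the range of the group.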

How the results depend on the processing

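Cdh5 and Vwf kept their calls in NT + Stroke vs NT + Sham under every alternative (adjusted *P* of 8.23e-07 to 0.0015 and 8.6e-06 to 0.00542) and without any 1 library. With all 4 groups in one fit 2 members were called there in place of 4. Of the members in HT + Stroke vs NT + Sham, 2 were called higher by DESeq2, 2 with all 4 groups in one fit and 0 with the replicate block, in place of 1, and the added gene was Cdh5. In that comparison DESeq2 called 3244 of all genes and all 4 groups in one fit called 3305. A pairing of the samples by library number was not shown. Same-numbered libraries had correlations of -0.440 to 0.324, and 2 to 5 of 12 libraries per comparison correlated best with their own number. Such values cannot exclude a pairing. The block changed no other call of a member. Over all genes it called 770 in place of 2470 in HT + Stroke vs NT + Sham and 46 in place of 108 in HT + Stroke vs HT + Sham, where DESeq2 called 907, all 4 groups in one fit 1125, no filter 179, library size only 67 and limma 68 with a pseudocount of 1. With library size only, 2987 genes were higher and 1021 lower in NT + Stroke vs NT + Sham, in place of 2426 and 1939. The cause was not tested.

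Signs turned only for differences near 0. In HT + Sham vs NT + Sham, Plvap was 0.00119 without a filter, 0.0163 with library size only and 0.0125 and 0.0132 by limma, and Slc2a1 was -0.000555 by DESeq2 and -0.0111 with the block. Tjp1 in HT + Stroke vs NT + Sham was -0.0146 without a filter, -0.00458 by DESeq2, -0.00742 with all 4 groups and -0.00498 with the block. Relative to the endothelial genes, Ocln in NT + Stroke vs NT + Sham was -0.0126 without Tek. Vwf in HT + Stroke vs NT + Stroke was 0.00791 without Tek, 0.00544 without Esam and 0.0182 without Egfl7. In HT + Stroke vs HT + Sham, Abcb1a was -0.00644 without Robo4, -0.0398 without Erg and -0.0203 without Emcn, Cldn5 was -0.0231 without Erg and -0.00365 without Emcn, and Ocln was 0.00591 without Sox18.

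With each library left out in turn, log2 differences crossed 0 as follows. In HT + Sham vs NT + Sham the ranges were -0.0653 to 0.0574 for Plvap, -0.0576 to 0.0677 for Slc2a1 and -0.173 to 0.00567 for Mfsd2a. In NT + Stroke vs NT + Sham they were -0.0172 to 0.0953 for Slc2a1 and -0.150 to 0.000281 for Mfsd2a, with 3 to 5 members called. In HT + Stroke vs HT + Sham they were -0.0209 to 0.0862 for Pecam1, -0.0233 to 0.112 for Vwf and -0.0147 to 0.137 for Abcb1a, with 0 to 1 members called higher. Vwf in HT + Stroke vs NT + Stroke ran from -0.0801 to 0.0532. Tjp1 in HT + Stroke vs NT + Sham ran from -0.0805 to 0.0531 and Abcb1a from -0.0613 to 0.0617, with 1 to 3 members called higher and 0 to 1 lower. The interaction of Ocln ran from -0.136 to 0.0218. Relative to the endothelial genes, the ranges were -0.0956 to 0.0421 for Slc2a1 and -0.0861 to 0.0419 for Plvap in HT + Sham vs NT + Sham, -0.0283 to 0.0689 for Ocln in NT + Stroke vs NT + Sham, and -0.0674 to 0.0560 for Vwf in HT + Stroke vs NT + Stroke. In HT + Stroke vs HT + Sham they were -0.0680 to 0.0930 for Ocln, -0.0657 to 0.0569 for Abcb1a, -0.0813 to 0.0295 for Pecam1, -0.103 to 0.0258 for Vwf and -0.0761 to 0.0788 for Cldn5. The number of relative calls ran from 0 to 2, with 2 without NT + Stroke library 3 (Cdh5 and Vwf) and 2 without HT + Sham library 3 (with Vwf in HT + Sham vs NT + Sham).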
